A study of Saccharomyces cerevisiae with 232 samples.

Results

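The data are the 5′-end counts at all 3396 nucleotides of yeast 25S ribosomal RNA (rRNA), the long RNA of the large ribosomal subunit, in 32 RiboMeth-seq libraries. All positions of the gene RDN25-1 in the deposited table were taken, 3396 of 5475 positions over 4 rRNAs, the other rRNAs being 18S, 5.8S and 5S. RDN25-1 lies on the minus strand of chrXII:451786-455181 in the R64 build, and its sequence there is identical to that of the second annotated copy, RDN25-2. The whole study held 232 samples on yeast strains without single tRNA modification enzymes, and its other assays were not used here.

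Every strain was made from BY4741, a standard laboratory strain of Saccharomyces cerevisiae, and each deletion (written D) replaced the named gene with kanMX, a drug resistance marker. All cultures grew in the rich medium YPD at 30 °C to mid-log phase and received cycloheximide, a translation inhibitor, the BY4741 cultures included. A first set of 14 libraries, numbered 1 and 2, holds 2 libraries each of trm7D, trm3D, trm13D, trm44D, trm732D, trm734/rtt10D (rtt10D from here on) and BY4741, with no end treatment stated. A second set of 18 libraries holds trm7D, trm3D and BY4741, each with RNA ends dephosphorylated by Antarctic phosphatase (AnP), Shrimp alkaline phosphatase (rSAP) or T4 polynucleotide kinase (T4PNK), and each of these once under the label f20 and once under f10, whose meaning is not stated. The labels do not say whether libraries of a strain came from separate cultures or clones, so the p-values measure only the spread between these libraries. The deleted genes are not among the 4 rRNAs, so the deletions themselves were not checked here.

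Ribose 2′-O-methylation adds a methyl group to the sugar of a nucleotide, and in rRNA most of these marks are placed by box C/D snoRNAs (small nucleolar RNAs), which pair with the rRNA and direct the methyltransferase Nop1 to the nucleotide a fixed distance from a short motif called box D. In 25S rRNA the marks cluster around the peptidyl transferase centre and other functional regions. Trm7, with its partners Trm732 and Rtt10 (also called Trm734), methylates riboses in the anticodon loop of tRNAs, and Trm3, Trm13 and Trm44 each methylate another ribose in tRNA, so none of the deleted enzymes is a known 25S methyltransferase. RiboMeth-seq breaks RNA with alkali and counts where the fragments begin: a methylated ribose resists cleavage, and few fragments begin at the nucleotide after it.

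The stretches below carry the methylated nucleotides that the comparisons turn on, read from the R64 genome of RefSeq on the minus strand of chromosome XII and written as RNA. Capitals mark nucleotides annotated as ribose-methylated, except in the last line, where they mark unannotated nucleotides with a protection score of at least 0.75 in all 32 libraries.
Am649 and Cm650, chrXII:454522-454543: gucuugaaacACggaccaagga
Cm663, chrXII:454509-454529: accaaggaguCuaacgucuau
Gm805, Am807 and Am817, chrXII:454355-454387: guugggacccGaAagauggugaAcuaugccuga
Gm867 and Am876, chrXII:454296-454325: gaggcucguaGcgguucugAcgugcaaauc
Um898 and Gm908, chrXII:454264-454294: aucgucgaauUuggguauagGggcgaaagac
Um1888, chrXII:453284-453304: gauagaauaaUguagauaagg
Um2417 and Um2421, chrXII:452751-452775: cuguugagcuUgacUcuaguuugac
Gm2815, chrXII:452357-452377: guuaccacagGgauaacuggc
Um2921 and Gm2922, chrXII:452250-452271: agcguuggauUGuucacccacu
A1558, A1559, G1560 and G1561, chrXII:453611-453634: cuccguuucaAAGGccugauuuua

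For some of these nucleotides the guide stretch of the snoRNA could be read by a script that required CUGA, the usual sequence of box D, with the guided nucleotide opposite position 5 upstream of it. CUGA alone fills 1.47% of the 4-nucleotide windows in the snoRNAs searched. Of 38 pairs of snoRNA and site, 21 had at least 10 contiguous pairs by this rule, a description of sequence that says nothing of use. In the lines below, from RefSeq, the single capital pairs with the methylated nucleotide and the final capitals are the CUGA. It begins near nucleotide 92 of 97 in snR40 and 73 of 78 in snR59, close to the 3′ end. In the others it lies inside the snoRNA, near 41 of 87 in snR78, 38 of 86 in snR66, 41 of 100 in snR62 and 43 of 96 in snR58. There it is not the box at the 3′ end.
snR78, guide to Um2421: caaacuagAguuuCUGA
snR66, guide to Um2417: agagucAagcuCUGA
snR62, guide to Um1888: ucuuaucuacAuuauCUGA
snR40, guide to Um898: uauacccaAauuuCUGA
snR58, guide to Cm663: uagacguuaGacuuCUGA
snR59, a guide to Am807: ucaccaucuUucggCUGA

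The libraries held 14.1 to 26.6 M counted ends (median 19.6 M), of which 54.5% to 64.2% lay in 25S, 8.19 to 17.0 M per library. The median 25S position had 1291 to 2730 ends per library, and the 33 positions after position 3363 had none in any library. The first principal component of the 25S profiles, 55.6% of the variance, separated f20 from f10 libraries. On the same axis all numbered libraries (4.64 to 8.18) lay above all libraries of the second set (highest 3.46). The AnP libraries of trm7D and trm3D lay at the edge of their f group, so counts of the second set are also given without both trm7D AnP libraries and without all 6 AnP libraries, settings added after the data were seen.

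The annotated ribose-methylated nucleotides were protected with 1 exception, in all strains and end treatments. For each nucleotide, the ends at the next position were set against the weighted mean of the 6 positions on each side (the neighbours), and the protection score is 1 minus that ratio, so that 1 means no ends and 0 means as many as the neighbours. The next position was chosen because the 37 annotated nucleotides had their highest median score there, 0.985, against 0.256 at the nucleotide itself. Their median score was 0.985, against 0.0746 over all 3352 nucleotides whose neighbours averaged at least 100 ends. Of the 37, 36 (97.3%) scored at least 0.75 in all 32 libraries, as did 111 unannotated nucleotides (3.35%). In each library 30 to 34 of the 37 scored at least 0.95.

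**Figure D1:**
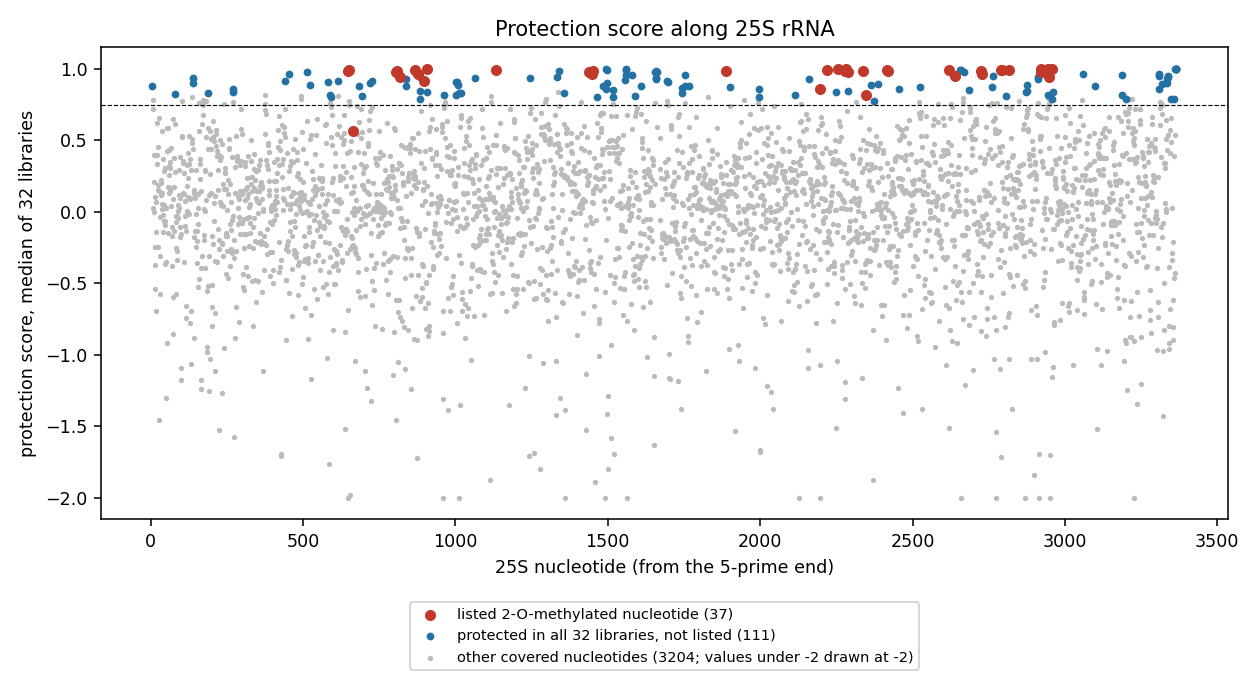
Protection score (y axis, no unit; median over 32 libraries) along 25S rRNA (x axis, nucleotide number), with the 37 annotated ribose-methylated nucleotides set apart from the other scored nucleotides. The annotated nucleotides sit near 1, and Cm663, at 0.568, is the only one of them below 0.75.

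The highest single scores among the annotated nucleotides lay in the peptidyl transferase region, but not every annotated nucleotide there was high. Um2921, guided by snR52, had a median of 0.999, Cm2959, guided by snR73, had 0.999, and Am2946, guided by snR71, had 0.998. Gm2922, the neighbour of Um2921 and the only annotated nucleotide methylated by a protein without a guide RNA, Spb1, had 0.979. Cm2948, between Am2946 and Cm2959, was lower, at 0.941 and 0.935 in the numbered BY4741 libraries. In the adjacent pairs Am649 and Cm650, Am1449 and Gm1450, and Am2280 and Am2281, both nucleotides were protected in all 32 libraries. Lowest were Cm663 at 0.568 (0.338 to 0.606 over 32 libraries), Um2347 at 0.820, Cm2197 at 0.857 and Um898 at 0.914. Cm663 ranked 404 among all scored nucleotides, whereas 34 of the 37 ranked among the first 100.

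The 111 unannotated protected nucleotides comprise 36 A, 19 C, 27 G and 29 U. Most protected was A1559, printed above, with 0 to 3 ends in every library and a median score of 1.00, followed among internal nucleotides by U1495 at 0.995, G1560 at 0.994, C1496 at 0.989 and A2657 at 0.989. A3362, U3363, C3364, U3365 and G3366 also scored 1.00, and these lie at the edge of the 3′ stretch where no fragment began. In 38 of the 111 the preceding nucleotide was protected too. The nucleotides closest to the threshold were U3358, G2375 and A2808 inside it, with lowest scores of 0.75005, 0.753 and 0.756, and A2667, G1994 and G1655 outside it, with 0.74967, 0.749 and 0.749.

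Other annotated marks were mostly unprotected. Of 30 pseudouridines, isomers of uridine with an unmodified ribose, 1 was protected, U1004 at 0.907, a share near the 3.35% of unannotated nucleotides. Their median score was 0.487, against -0.00196 over the U of 25S. The 1-methyladenosines had median scores of 0.562 (A2142) and -0.131 (A645), the 3-methyluridines -0.107 (U2843) and -0.482 (U2634), and the 5-methylcytidines -1.19 (C2278) and -2.88 (C2870), negative values meaning more ends than at the neighbours. G2395, a predicted target of snR190, scored -0.648. The most frequent single start was position 3, with a median of 0.553% of 25S ends, followed by position 1458 with 0.453% and position 1653 with 0.349%.

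In trm7D the ends after annotated methylated nucleotides changed in both directions in the second set, while only rises were called in the numbered set. In the second set Am649, Um2421 and Am807 were less protected, and Um2417, Um1888 and Um898 more protected, than in BY4741. There edgeR's quasi-likelihood test with Benjamini-Hochberg adjustment over all positions called 122 25S positions (83 higher, 39 lower), and 4.58% of all 5300 positions tested were called. Of the 26 annotated nucleotides with a mean of at least 10 ends, 18 were called (8 higher, 10 lower), or 69.2%, against 3.13% of the other 25S positions. Of all positions tested 2.89% were called higher. The other 11 annotated nucleotides had too few ends for this test. The median absolute log2 fold change of the 26 was 0.47, against 0.05 over all 25S positions.

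Without both trm7D AnP libraries the 25S count was 47 and the annotated count 13 of 26, and without all AnP libraries they were 50 and 13. Cm650, Gm867, Am2640, Um2729 and Cm2948 were not called without all AnP libraries. Within single treatments it was 17 under T4PNK and 12 under rSAP, with 10 annotated nucleotides each, but 807 under AnP, with 14. All 18 called nucleotides kept their direction within each of the 3 end treatments and both f labels. These are parts of the libraries that gave the calls, so this is not an independent check. Of the 104 unannotated protected nucleotides tested, 1 was called.

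At Am649, guided by snR18, ends in the second set were 2.51% to 3.99% of the neighbour mean in the 6 trm7D libraries (median 3.53%), against 0.954% to 1.48% in the 6 BY4741 libraries (median 1.18%). In the numbered set they were 3.24% and 2.996% in trm7D, against 1.02% and 1.25% in BY4741. All 8 trm7D libraries lay above all 8 BY4741 libraries. The log2 fold change of ends was 1.43 ± 0.096 (SE; edgeR adjusted p = 4.3e-09) in the second set and 1.47 ± 0.19 (adjusted p = 0.0090) in the numbered set. Cm650, guided by the same snoRNA, had log2 fold changes of 0.57 ± 0.16 (edgeR adjusted p = 0.042) and, in the numbered set without a call, 1.11.

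Um2421, guided by snR78, had 2.64% to 3.37% of the neighbour mean in trm7D (median 3.09%), against 1.07% to 1.73% in BY4741 (median 1.16%) in the second set. The numbered libraries gave 3.24% and 4.41% in trm7D, against 1.51% and 1.45% in BY4741. Again the strains did not overlap in either set. The log2 fold changes were 1.30 ± 0.099 (edgeR adjusted p = 2.5e-08) in the second set and 1.33 ± 0.21 (adjusted p = 0.019) in the numbered set.

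Um2417, printed in the same stretch as Um2421 and guided by snR66, went the other way. It had 0.132% to 0.462% of the neighbour mean in trm7D (median 0.388%), against 0.699% to 0.994% in BY4741 (median 0.878%), or 5 to 18 ends in trm7D libraries against 21 to 43 in BY4741 libraries. The numbered values were 0.217% and 0.634% in trm7D, against 0.966% and 1.02% in BY4741. The log2 fold change of ends was -1.36 ± 0.19 (edgeR adjusted p = 2.0e-04) in the second set, and -1.32 ± 0.35 in the numbered set (edgeR adjusted p = 0.39).

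Um1888, guided by snR62, had 0.405% to 1.02% of the neighbour mean in trm7D (median 0.708%), against 1.65% to 2.15% in BY4741 (median 1.80%) in the second set. Numbered libraries had 0.839% and 0.842% in trm7D, against 1.42% and 2.04% in BY4741. The strains did not overlap in either set, with log2 fold changes of -1.36 ± 0.13 (edgeR adjusted p = 6.2e-07) and, in the numbered set, -1.02 ± 0.21 (edgeR adjusted p = 0.12). Um898, guided by snR40, had 3.88% to 5.31% in trm7D (median 4.47%), against 8.01% to 9.05% in BY4741 (median 8.57%), without overlap and with a log2 fold change of -0.90 ± 0.073 (edgeR adjusted p = 5.9e-08). In the numbered set it had 4.43% and 7.59% in trm7D, against 9.73% and 9.15% in BY4741, with a log2 fold change of -0.67 ± 0.20 (edgeR adjusted p = 0.57).

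Am807, a target of the paralogous guides snR39 and snR59, had 2.65% to 2.97% of the neighbour mean in trm7D (median 2.74%), against 1.47% to 1.84% in BY4741 (median 1.65%). The log2 fold changes were 0.69 ± 0.057 (edgeR adjusted p = 5.9e-08) in the second set and 0.70 ± 0.098 (adjusted p = 0.010) in the numbered set, where the values were 2.86% and 3.38% in trm7D, against 1.81% and 1.85% in BY4741. Nearby Am817, guided by snR60, was lower, at 3.65% to 4.11% in trm7D (median 3.96%), against 5.66% to 5.97% in BY4741 (median 5.75%). Its log2 fold change was -0.61 ± 0.053 (edgeR adjusted p = 1.2e-07), and in the numbered set -0.57 ± 0.11 (edgeR adjusted p = 0.075).

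Cm663, guided by snR58 and the least protected annotated nucleotide, had still more ends in trm7D, at 51.9% to 58.5% of the neighbour mean (median 55.2%), against 40.6% to 47.1% in BY4741 (median 42.9%) in the second set. The numbered values were 57.7% and 66.2% in trm7D, against 42.8% and 42.2% in BY4741. The strains did not overlap in either set. The log2 fold changes were 0.33 ± 0.041 (edgeR adjusted p = 3.0e-05) and 0.56 ± 0.091 (adjusted p = 0.025 in the numbered set).

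**Figure D2:**
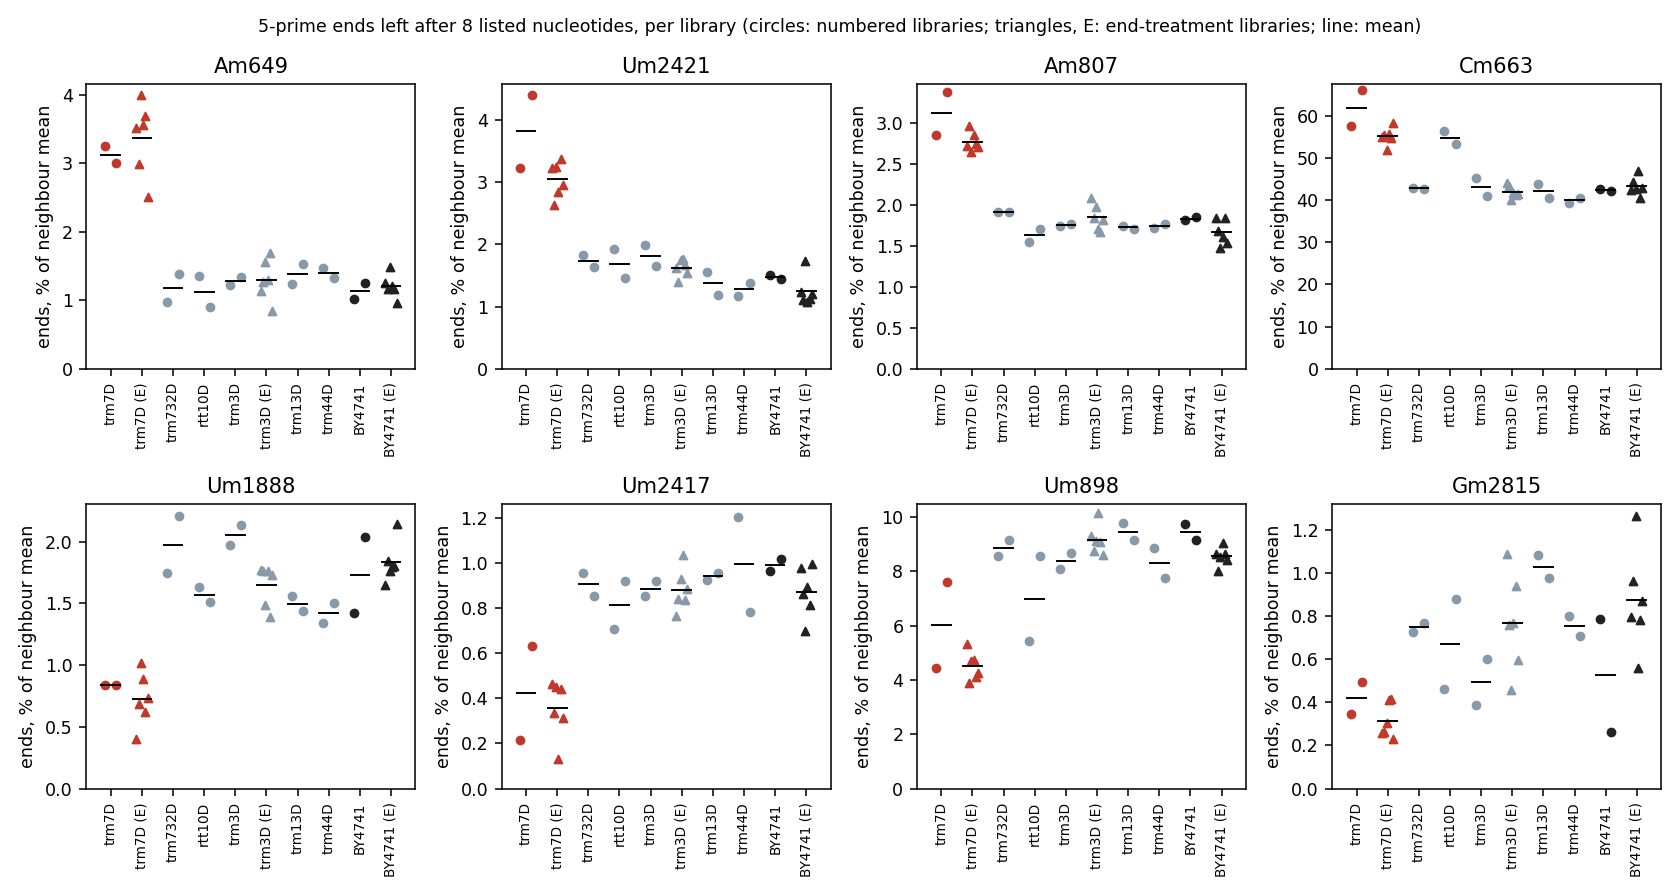
Ends after 8 annotated nucleotides as a percentage of the neighbour mean (y axes, each with its own range), one point per library, with trm7D left of BY4741. At Am649, Um2421, Am807 and Cm663 the trm7D libraries lie above all BY4741 libraries; at Um1888, Um2417 and Um898 they lie below them.

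Gm2922, the Spb1 target, rose with a log2 fold change of 0.57 ± 0.13 (edgeR adjusted p = 0.016; limma adjusted p = 0.063), although the ranges overlapped slightly, at 2.15% to 3.25% of the neighbour mean in trm7D, against 1.42% to 2.15% in BY4741. Gm805 (0.39) and Gm867 (0.38), guided by snR39B and snR50, rose too in the second set by edgeR. Am876 (-0.60), Cm2948 (-0.51), Cm2197 (-0.47), Um2347 (-0.45), Um2729 (-0.44) and Am2640 (-0.32) fell. By base, the 16 called on local protection, described next, were 5 of 12 A, 3 of 7 C, 3 of 10 G and 5 of 8 U.

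Local protection was tested with limma on the log2 ratio of ends to the neighbour mean, with 1 added to each, which kept all 37 annotated nucleotides. In the second set 16 of 37 were called for trm7D over BY4741 (6 higher, 10 lower), or 43.2%, against 0.962% of the other 25S positions, while 1.56% of all 5319 positions tested were called. Without both trm7D AnP libraries 13 of 37 were called, and 21 in all of 25S instead of 48. Gm2815, guided by snR38, was called here alone, at -1.26 ± 0.21 (limma adjusted p = 0.0048). It rests on 3 to 5 ends per trm7D library, against 8 to 15 per BY4741 library, and its ratio in the numbered set was -0.14. Gm2922, Cm650 and Um2729, called by edgeR, were not called here (limma adjusted p = 0.063, 0.076 and 0.076). Without all AnP libraries 12 of 37 were called, and 20 in all of 25S.

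In the numbered set, with 2 libraries per strain, fewer positions were called. There edgeR called 5 25S positions for trm7D over BY4741 (4 higher, 1 lower), 0.0943% of all 5303 positions tested. The 4 higher were Am649, Um2421, Am807 and Cm663, 4 of the 26 annotated nucleotides tested against 0.0754% of all positions, and all 5 were called in the second set with the same sign. Leaving out BY4741 replicate 1 or 2 ended all 5 calls, without trm7D replicate 1 there were 3 and without trm7D replicate 2 there were 4. limma called 0 25S positions here, with 189 at an unadjusted p under 0.05, while DESeq2 called 8. The sets share no library. The edgeR log2 fold changes of both sets had a Pearson r of 0.929 over the 26 annotated nucleotides, which share rRNA molecules and libraries, and of 0.198 over 3323 others. All 18 nucleotides called in the second set had the same sign in the numbered set. Over all 26 annotated nucleotides tested, called or not, 21 had the same sign. By limma the r over the 37 was 0.708, and 30 of them had the same sign. A test of the difference of the trm7D effect between the sets called 0 25S positions by edgeR and by limma. With 2 numbered libraries per strain, this lack of calls does not show that the effects are equal.

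**Figure D3:**
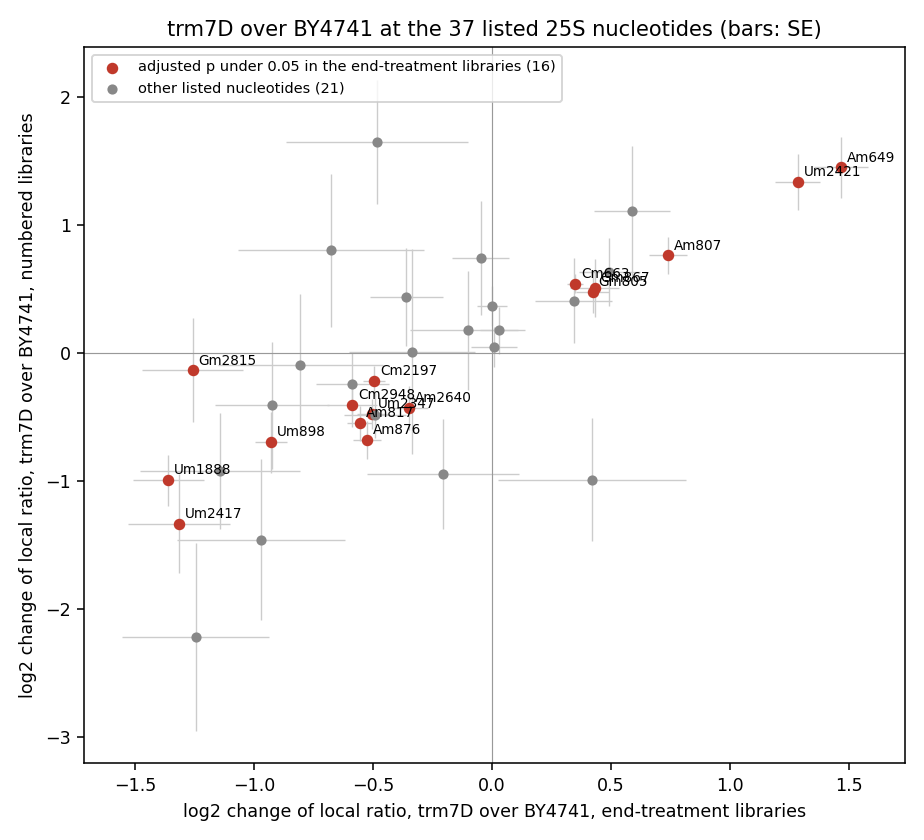
Change of local protection in trm7D over BY4741 (log2 ratio of ends to neighbours, limma) at the 37 annotated nucleotides, in the end-treatment libraries (x axis) and in the numbered libraries (y axis). The 16 nucleotides called in the end-treatment set are in red, and all of them have the same sign in both sets.

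Fragments beginning at the very first nucleotide of 25S were also fewer in trm7D. Fragments beginning at position 1, the terminus of the mature RNA, made up 88.4 to 151 per M 25S ends in the 6 trm7D libraries of the second set, against 163 to 230 per M in the 6 BY4741 libraries. The numbered libraries had 128 and 150 per M in trm7D, against 209 and 197 in BY4741. The strains did not overlap in either set, and the 6 trm3D libraries had 158 to 278. The log2 fold changes in trm7D were -0.65 ± 0.044 (edgeR adjusted p = 4.3e-09) in the second set and -0.55 ± 0.079 (adjusted p = 0.010) in the numbered set. The ends after G1 fell with a log2 fold change of -0.62 in the second set. Position 3, the most frequent start, did not fall with them. In the second set it held 0.402% to 0.698% of 25S ends in trm7D, against 0.407% to 0.595% in BY4741. The numbered libraries had 0.579% and 0.591% there in trm7D, against 0.556% and 0.529% in BY4741.

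The other deletion strains of the numbered set, which share the 2 BY4741 libraries with trm7D, did not reach its values at Am649 and Um2421. Over their 10 libraries Am649 had 0.897% to 1.53% of the neighbour mean and Um2421 1.17% to 1.99%. Am649 had 0.974% and 1.38% of the neighbour mean in trm732D and 1.35% and 0.897% in rtt10D, the strains without a partner of Trm7. Um2421 had 1.82% and 1.64% in trm732D and 1.92% and 1.46% in rtt10D. Set against the 10 libraries of the other deletion strains, a comparison added after the data were seen, trm7D had log2 fold changes of 1.28 at Am649, 1.31 at Um2421, 0.78 at Am807, 0.47 at Cm663, -0.998 at Um1888 and -0.60 at position 1, all called by edgeR. Of the 26 annotated nucleotides, 7 were called there and 11 25S positions in all, with a background of 0.302%.

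Cm663 was the 1 annotated nucleotide called in rtt10D, by edgeR and by limma. By edgeR 1 of 26 is 3.85%, near the 3.45% of all positions called in rtt10D. In rtt10D 4 of 26 by edgeR and 8 of 37 by limma had an unadjusted p under 0.05. The median absolute limma log2 ratio of the 37 was 0.36 in rtt10D and 0.54 in trm7D of the numbered set. It was 0.13 to 0.19 in the other deletion strains. Cm663 had 56.5% and 53.3% of the neighbour mean in rtt10D, against 42.8% and 42.2% in BY4741, while trm732D had 43.0% and 42.7%. The log2 fold change was 0.43 ± 0.091 in rtt10D (edgeR adjusted p = 0.021) and 0.08 in trm732D, with a 95% interval of -0.10 to 0.27. None of the 26 was called in trm44D, where 4.04% of all positions were, nor in trm732D (1.73%), trm3D (0.0%) or trm13D (0.0%) of the numbered set, with 1, 1, 3 and 1 at an unadjusted p under 0.05 by edgeR, and limma called none of the 37 there.

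**Figure D4:**
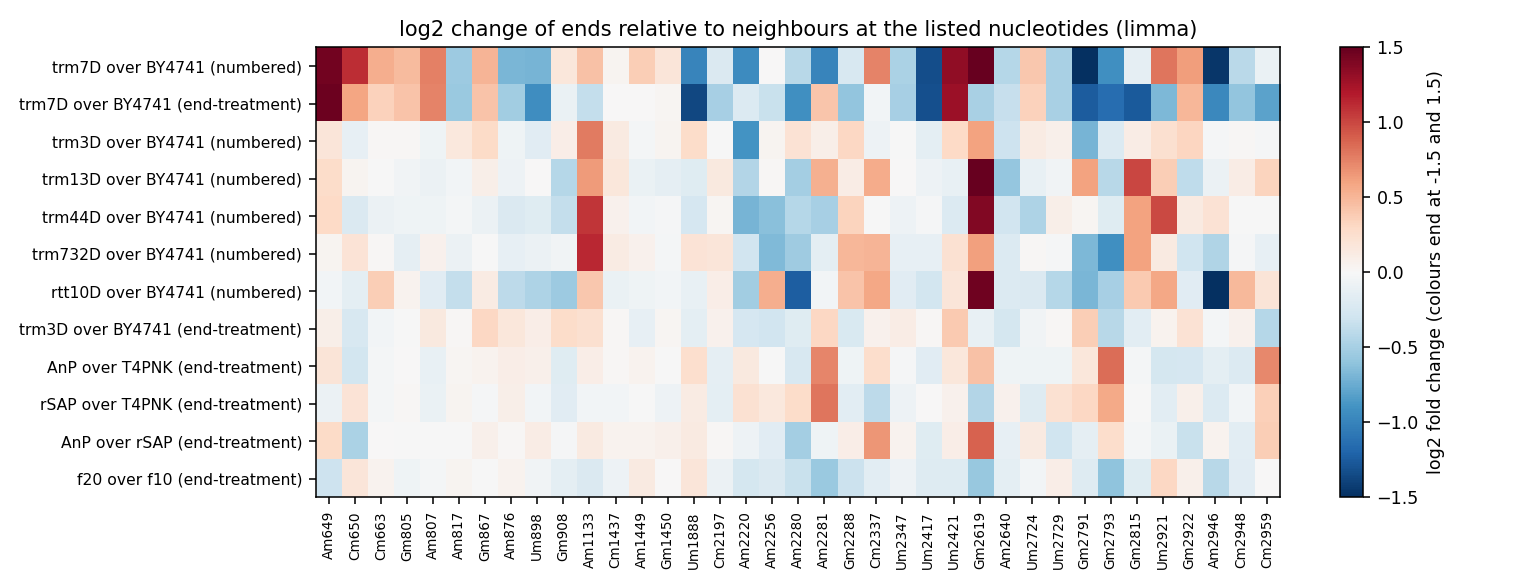
Change of local protection (log2 ratio of ends to neighbours, limma, colour scale) at the 37 annotated nucleotides (across, in 5′ to 3′ order) in 12 comparisons (down the page). Am649, Um2421, Um1888 and Um2417 have the same sign in the trm7D rows of both library sets; values as large in other strains, such as 1.77 at Gm2619 in trm13D and -1.94 at Am2946 in rtt10D, were not called and stand on at most 6 and 7 ends per library.

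In trm44D, trm732D and rtt10D the 25S calls were mostly lower. They held 0, 0 and 1 of the 26 annotated nucleotides, against 2.80%, 1.87% and 3.37% of the other 25S positions. With 26 tested, these counts do not show that the calls avoided them. edgeR called 93 25S positions in trm44D (4 higher, 89 lower), 62 in trm732D (6 and 56) and 113 in rtt10D (23 and 90), against backgrounds of 4.04%, 1.73% and 3.45% of all 5303 positions. C3321, near the 3′ end, had 405 and 438 ends per M 25S ends in trm44D, 397 and 336 in trm732D, 334 and 352 in rtt10D, and 582 and 628 in BY4741. All 6 deletion libraries lay below both BY4741 libraries. The log2 fold changes there were -0.54 ± 0.075 in trm44D, -0.72 ± 0.076 in trm732D and -0.83 ± 0.076 in rtt10D (edgeR adjusted p = 0.0060, 3.7e-04 and 6.9e-05). The next positions fell with it, in unbroken runs from 3321 to 3325, 3329 and 3330 in the same order of strains.

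These counts rested on single libraries. Without BY4741 replicate 1 the 25S calls were 0 in trm44D, 5 in trm732D and 24 in rtt10D, and without BY4741 replicate 2 they were 45, 12 and 39. Without replicate 1 of the deletion strain they were 1, 37 and 53, and without its replicate 2 they were 60, 3 and 8. By local protection limma called 0, 7 and 21 25S positions, against 0.0188%, 0.188% and 0.771% of all 5321 positions tested. In trm3D and trm13D edgeR called 0 25S positions in the numbered set, with 303 and 178 at an unadjusted p under 0.05, limma called 0 and DESeq2 called 11 and 0.

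In the second set trm3D differed from BY4741 at 269 25S positions by edgeR (142 higher, 127 lower), with 11.2% of all 5300 positions called. Of the 26 annotated nucleotides tested 2 were called, a share near that of 25S as a whole, 269 of 3349 positions. Um2421 rose, at 1.39% to 1.76% of the neighbour mean in trm3D (median 1.65%), against 1.07% to 1.73% in BY4741 (median 1.16%). Its log2 fold change was 0.43 ± 0.11 (edgeR adjusted p = 0.018). Am1449 fell by 0.17 on the log2 scale. The strains overlapped at Um2421, which was also the 1 of 37 called by limma (0.39), against 3.08% of all positions. Among unannotated positions the largest rise was at U2588, with 65.8 ± 9.88 ends per M in trm3D, against 47.8 ± 8.39 in BY4741 (SD, n = 6 each; log2 fold change 0.47 ± 0.099, edgeR adjusted p = 0.0029), and U2587, A2590 and U2599 rose with it. The calls numbered 6 within T4PNK and 69 within rSAP, against 319 within AnP, and 546 when both trm7D AnP libraries were left out. Without all AnP libraries there were 76, with none of the 26 annotated nucleotides (Um2421 at 0.43, edgeR adjusted p = 0.071), and limma called 0 of 25S instead of 111. Over 3323 unannotated positions the trm3D log2 fold changes of the sets had a Pearson r of -0.02. No 25S position was called by edgeR for a difference between the sets, which with 2 numbered libraries per strain does not show equal effects.

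Few annotated nucleotides were called between end treatments. Many of them have few ends, so the lack of a call does not show a lack of change. Their limma log2 ratios for AnP over T4PNK ran from -0.27 at Cm650 to 0.83 at Gm2793, neither of them called. None of the 26 was called for AnP over T4PNK or rSAP over T4PNK by edgeR, with 1 and 0 at an unadjusted p under 0.05, and limma called 1 (Cm2197, -0.13) and 0 of 37, against 27.7% and 2.65% of all 5319 positions. For AnP over T4PNK edgeR called 1490 25S positions (873 higher, 617 lower; background 45.2%), and for rSAP over T4PNK 89 (81 higher, 8 lower; background 2.43%). For AnP over rSAP it called 928 (600 and 328; background 27.8%), 3 of them annotated: Cm650 (-0.57), Gm2922 (-0.37) and Cm2337 (0.57). The AnP counts moved with strain. For AnP over T4PNK there were 1607 calls within trm7D, 566 within trm3D and 5 within BY4741, and for AnP over rSAP 935, 339 and 0. Without both trm7D AnP libraries the counts were 877 for AnP over T4PNK, 155 for rSAP over T4PNK and 313 for AnP over rSAP, and without all AnP libraries rSAP over T4PNK had 158.

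The largest changes with phosphatase lay in a short stretch near nucleotide 1338, which holds no annotated methylation. C1338 had 27.3 ± 5.76 ends per M under AnP, 35.2 ± 4.03 under rSAP and 16.4 ± 1.94 under T4PNK (SD, n = 6 each). The lowest values were 19.0 under AnP and 31.1 under rSAP, above the highest under T4PNK, 18.7. The log2 fold changes over T4PNK were 0.78 ± 0.12 for AnP and 1.11 ± 0.12 for rSAP (edgeR adjusted p = 8.9e-05 and 5.7e-06). U1334 had 21.0, 29.8 and 14.1 ends per M, and C1339 2.05, 2.97 and 1.43, in the order AnP, rSAP and T4PNK. G838, at 109, 131 and 71.7, and U3058, at 5.06, 7.83 and 4.56, also had more ends under rSAP than T4PNK. C453 fell for AnP over rSAP, with 0.674 ± 0.296 under AnP, 1.28 ± 0.460 under rSAP and 0.772 ± 0.125 under T4PNK (SD, n = 6 each). Of the 104 unannotated protected nucleotides tested, 21 (20.2%) rose and 0 fell for rSAP over T4PNK, where 2.06% of all positions rose. For AnP over rSAP 1 rose and 30 fell, 29.8% in all. That total was near the 27.8% of all positions called, but the directions differed. Over this whole rRNA more positions rose than fell, whichever base came before the fragment start. After A 135 rose and 96 fell of 887 tested, and after C 141 and 49 of 656. After G 181 rose and 75 fell of 953, and after U 142 and 108 of 852.

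**Figure D5:**
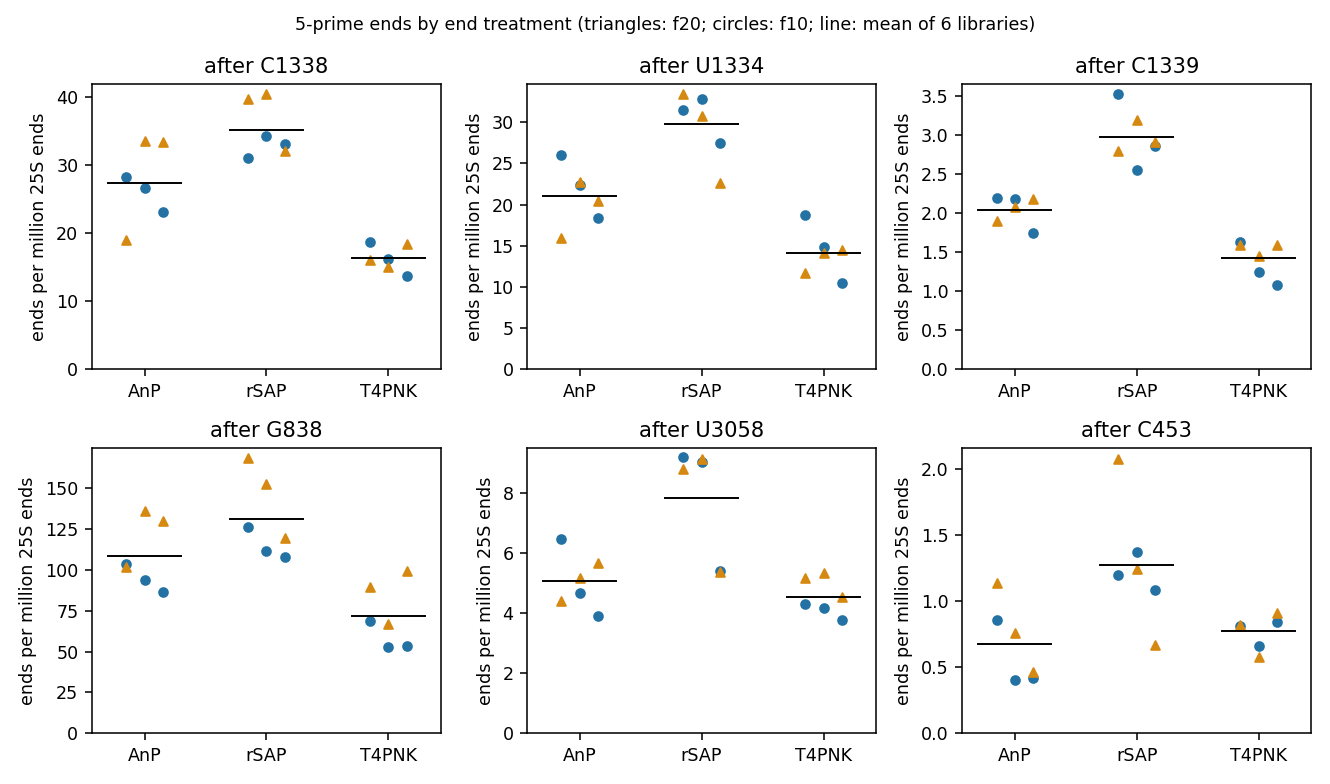
Ends per M 25S ends (y axes, each with its own range) at C1338, U1334, C1339, G838, U3058 and C453 by end treatment (AnP, rSAP, T4PNK from left to right), one point per library, triangles for f20 and circles for f10. At C1338 every rSAP and AnP library lies above every T4PNK library.

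The f label went with more 25S positions than strain or end treatment. For f20 over f10 edgeR called 2403 25S positions (1230 higher, 1173 lower), with a background of 72.5%, and 11 of the 26 annotated nucleotides, a share below the background. By limma 4 of 37 were called, against 50.5% of all positions. The few ends at many annotated nucleotides limit both shares. Within BY4741, trm7D and trm3D the counts were 1718, 1711 and 1821, and 2405 without both trm7D AnP libraries. C3272 had 148 ± 6.61 ends per M under f20, against 308 ± 19.0 under f10 (SD, n = 9 each; log2 fold change -1.04 ± 0.035, edgeR adjusted p = 1.8e-15), and C288 had 54.2 ± 7.91, against 113 ± 10.1. A3087 went up, with 231 ± 44.1 under f20, against 141 ± 18.2 under f10. The last 283 positions held 6.54% of 25S ends under f20, against 8.39% under f10, with 21 positions higher and 182 lower, while positions 1982 to 2264 held 13.3% under f20, against 11.8% under f10, with 164 higher and 62 lower. The annotated nucleotides with the largest called changes were Am649 (-0.42), Cm2948 (-0.38) and Cm663 (-0.36), smaller than the trm7D effect at Am649.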

How the data were processed

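The authors deposited 5′-end counts per rRNA position, as whole reads, for 32 RiboMeth-seq libraries. Per the labels' protocols, total RNA was end-repaired, made into libraries with the NEBNext small RNA kit and sequenced as single ends. The submitters' processing notes name sacCer3, HOMER 4.6, SAMtools and TopHat2 2.0.12, and the step that made this table is not given in the sources used here. Library totals were 14.1 to 26.6 M counted ends. PCR copies are counted as reads, so counts carry counting error plus that.

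Counts were tested with edgeR 4.0.16 (quasi-likelihood, TMM, mean of at least 10 ends over all libraries of a set) and local ratios with limma 3.58.1 (pseudocount 1), each over all 4 rRNAs with Benjamini-Hochberg adjustment and a threshold of 0.05. The numbered fit had strain as its term, the second strain, end treatment and f label. DESeq2 1.42.0 was an alternative. Both tests were run on simulated counts. For limma the neighbour means were fixed without counting noise and not taken from neighbouring positions, so the local ratio as used here was not checked. Positions named are the annotated nucleotides, those near the protection threshold and up to 5 called positions in each direction per comparison. Members and lists were chosen with earlier results of these data known. No correction for sequence bias of ligation was made.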

Additional observations from a re-analysis of the deposited data

Results flagged for a closer look

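The trm7D effect differed between AnP and T4PNK libraries at 354 25S positions by a test of the difference itself (edgeR with Benjamini-Hochberg adjustment), which is 2 libraries per strain and treatment, and 12.1% of all 5300 positions tested were called. None of the 26 annotated nucleotides tested was among them. The log2 difference of the trm7D effect, AnP minus T4PNK, was 0.75 at G3340, 0.67 at G3345, 0.65 at U3341, 0.60 at A3347, 0.53 at U3352, 0.46 at A3087 and 0.38 at U2193. It was -0.79 at G1019, -0.71 at A2459, -0.59 at G1018, -0.55 at U3358 and -0.51 at A2458. At G3340 the trm7D AnP libraries had 1143 (f10) and 777 (f20) ends per M 25S ends, the BY4741 AnP libraries 755 and 469, the trm7D T4PNK libraries 574 and 402, and the BY4741 T4PNK libraries 592 and 402. The same test for rSAP minus T4PNK called 0 positions, and for trm3D it called 0 for either treatment. With 1 library per strain, treatment and f label, a difference of these libraries and one of the strain cannot be told apart.

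In the second set, single libraries were looked for that lay far from the other 5 of their strain or end treatment, or the other 8 of their f label, by Dixon's 95% critical value. These groups mix the other factors, and 9 of 182 groups over 64 named positions held such a library, near the 1 in 20 that chance gives. As a percentage of the neighbour mean, Um2421 had 1.73% in the BY4741 AnP f10 library, against 1.24% in the next BY4741 library. Gm867 had 1.23% in the BY4741 T4PNK f20 library, against 0.963% in the next. Cm2337 had 2.58% in the trm7D AnP f10 library, against 1.47% in the next trm7D library. In trm3D, Cm650 had 0.534% in the rSAP f20 library (next 0.406%), Gm908 0.196% in the AnP f20 library (next 0.358%) and Um2347 21.98% in the T4PNK f10 library (next 19.4%). By f label, the trm7D AnP f20 library was lowest of the f20 libraries at C288, with 35.9 ends per M 25S ends (next 50.8), and at U294, with 40.8 (next 59.6). The trm7D AnP f10 library was highest of the f10 libraries at A3087, with 184 (next 149).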

How the results depend on the processing

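Of 27 counts, 139 of 215 recomputed values stayed within 1.5 times the value reported and 76 did not. Of 207 log2 fold changes at named positions none reversed in 1608 recomputations, 443 of which lost the call. With a score threshold of 0.5 or 0.9 in place of 0.75, 395 or 68 positions were protected, 359 or 35 of them unannotated. DESeq2 called 11 positions in trm3D and 8 in trm7D (numbered), and 184 in trm7D (second set). With 25S positions fitted alone edgeR called 8 in trm7D, 108 in trm732D and 199 in rtt10D (numbered), and 171 in trm3D (second set). With strain as the only term of the second set the counts were 9 in trm7D and 0 in trm3D. Within T4PNK, AnP, rSAP, f10 and f20 trm7D had 17, 807, 12, 11 and 14, and trm3D had 6, 319, 69, 61 and 45. Within BY4741 and trm3D there were 5 and 566 calls for AnP over T4PNK, 16 and 7 for rSAP over T4PNK, and 0 and 339 for AnP over rSAP. Leaving out both trm7D AnP libraries, chosen after the data were seen, gave edgeR counts of 47 in trm7D, 546 in trm3D, 877 for AnP over T4PNK, 155 for rSAP over T4PNK and 313 for AnP over rSAP, and limma counts of 21 in trm7D, 432 for AnP over T4PNK and 112 for AnP over rSAP. Leaving out all AnP libraries, also chosen after the data were seen, gave edgeR counts of 50 in trm7D, 76 in trm3D and 158 for rSAP over T4PNK, and limma counts of 20 in trm7D and 0 in trm3D.

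For local protection, a window of 2 positions gave 0 in trm732D and 7 in rtt10D, 67 in trm3D (second set), 636 for AnP over T4PNK and 265 for AnP over rSAP. In trm44D a pseudocount of 10 gave 3 and no filter gave 1. Without 1 replicate, the edgeR counts ranged over 0 to 4 in trm7D, 0 to 60 in trm44D, 3 to 37 in trm732D, 8 to 53 in rtt10D, 0 to 1 in trm13D and 0 to 0 in trm3D. The limma counts then ranged over 0 to 1 in trm7D and trm13D, 0 to 3 in trm732D, 0 to 4 in rtt10D and 0 to 0 in trm3D and trm44D. The cause of these moves was not tested.

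With the replicate number as a block, edgeR called 4 positions in trm7D, 91 in trm44D, 59 in trm732D and 122 in rtt10D, and limma 1 in trm732D and 12 in rtt10D. Same-numbered libraries correlated at -0.330 to 0.502 over 21 pairs of strains, 6 of them over 0.1, which cannot exclude pairing. The labels do not state that the numbers pair the libraries, so the main fits had no such term. Depth limits the 11 annotated nucleotides with under 10 ends on average, for which counts of a few ends per library carry wide counting error.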
